A study of Homo sapiens with 6 samples.

Results

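The 5 human genes of the collapsin response mediator protein (CRMP) family, CRMP1, DPYSL2, DPYSL3, DPYSL4 and DPYSL5, were followed in HEK293T cells 18 h after transfection with a miR-34a duplex. HEK293T is an immortalised human embryonic kidney line. The cells of the other group were transfected with the AllStars negative control from Qiagen, called the control here. Each group held 3 libraries, labelled as biological replicates of the same line, which were made in bulk from total RNA. The genes were found by symbol among the 63140 Ensembl genes of the count table, and all 5 were among the 17427 genes with enough reads to be tested. The family was chosen because DPYSL4 had one of the largest differences between the groups, so every difference between miR-34a and control libraries is given for the 5 members as a description, with an interval and no p-value. How many members passed the threshold of the fit over all genes is stated once, beside the share of all genes that did, and supports nothing.

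CRMPs are cytosolic phosphoproteins that are abundant in developing neurons, where they assemble into tetramers, bind tubulin and carry semaphorin signals from plexin and neuropilin receptors to the cytoskeleton of the growth cone. They are related in sequence to dihydropyrimidinase, an enzyme of pyrimidine degradation, and are also called dihydropyrimidinase-like proteins. DPYSL2 (CRMP2) promotes microtubule assembly and axon growth and is switched by phosphorylation through CDK5 and GSK3. CRMP1 takes part in semaphorin 3A signalling, DPYSL3 (CRMP4) also binds actin, DPYSL4 (CRMP3) has been described as a p53-inducible gene, and DPYSL5 (CRMP5) is the most divergent member. miR-34a is itself made from a gene that p53 induces. A microRNA guides Argonaute proteins to mRNAs that pair with its seed, bases 2 to 8 from its 5′ end, and the mRNA is then destabilised.

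The transfected guide strand and the matches to its seed in the family are shown because the members differ in where such matches lie. Each mRNA is the GENCODE transcript with the longest coding sequence, and the capitals mark the seed of the microRNA or the bases of the mRNA that match it. An 8mer is CACTGCCA, a 7mer-m8 is CACTGCC, a 7mer-A1 is ACTGCCA and a 6mer is ACTGCC. Every match was counted once, under the longest motif it completed. The first line is the microRNA, from RefSeq on GRCh38.p14 (chr1:9151735-9151756, minus strand), and the others are matches in 3′ untranslated regions (UTRs).
miR-34a-5p: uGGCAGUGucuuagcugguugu
DPYSL4 8mer: gaacctggggagatgtCACTGCCAgggt
DPYSL4 7mer-m8: gcctccccaccaccagtCACTGCCtcgc
DPYSL3 7mer-m8: gccaaatcggtcatccgCACTGCCcttg
CRMP1 6mer: aaaaaataaagaaaatgaACTGCCcact

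DPYSL4 held both an 8mer and a 7mer-m8 in its 3′ UTR of 846 nt. The 8mer lay at chr10:132205144-132205151 (GRCh38, plus strand), starting at base 214 after the stop codon, and the 7mer-m8 at chr10:132205351-132205357, starting 207 nt further on. Both were in the last of 14 exons. DPYSL3 held a 7mer-m8 far into its 3′ UTR, at base 2143 of 3223 (chr5:147391886-147391892, minus strand). In CRMP1 the only 3′ UTR match was a 6mer at base 966 of 996 (chr4:5820789-5820794, minus strand). No match was found in the 3′ UTR of DPYSL2 (2467 nt) or of DPYSL5 (3356 nt). Among the 18156 protein-coding genes of the table with a 3′ UTR of at least 50 nt, 4.69% held an 8mer and 19.0% held a 7mer or 8mer of any kind there.

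Shorter annotated transcripts change this picture for some members. A shorter DPYSL4 transcript has a 3′ UTR of 305 nt, which keeps the 8mer and lacks the 7mer-m8. A CRMP1 transcript with a 3′ UTR of 517 nt lacks the 6mer, and a DPYSL3 transcript with 210 nt lacks the 7mer-m8. Counts per gene do not show which of these transcripts the cells made. The predicted duplexes with miR-34a-5p, over 30 nt of mRNA, had free energies of -20.3 and -20.8 kcal/mol at the 8mer and 7mer-m8 of DPYSL4. They were -20.4 kcal/mol at the 7mer-m8 of DPYSL3 and -10.7 kcal/mol at the 6mer of CRMP1. Bases 13 to 16 of the microRNA, where extra pairing can add to the seed, were unpaired at the 8mer of DPYSL4, while 3 of them were paired at its 7mer-m8.

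A further match lay in the coding sequence and was shared by 4 members. It was a 7mer-m8 in exon 10 at the same column of the coding-sequence alignment in CRMP1, DPYSL2, DPYSL3 and DPYSL4. At that column DPYSL5 had 3 of the 7 matching bases. The predicted duplexes at this coding match were -21.7 kcal/mol in CRMP1, -15.5 in DPYSL2, -16 in DPYSL3 and -15.7 in DPYSL4. The predicted duplex of DPYSL4 paired 6 of the 7 seed bases, starting at base 3 of the microRNA. Those of CRMP1, DPYSL2 and DPYSL3 paired all 7, starting at base 2. The stretch is shown for members read outside DPYSL2, with the 7 aligned bases in capitals.
CRMP1: ggccactgtccctacagCACTGCCcaga
DPYSL3: gcccactgcaccttcagCACTGCCcaga
DPYSL4: gcccactgcaccttcacCACTGCCcaga
DPYSL5: gatcaccggcctttcacCACAAAGcaga

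These coding matches lie at chr4:5836858-5836864 in CRMP1, chr5:147400785-147400791 in DPYSL3 and chr10:132200884-132200890 in DPYSL4. An 8mer in exon 9 was shared by DPYSL2 and DPYSL3, and at its column DPYSL4 had 7, DPYSL5 6 and CRMP1 5 of the 8 bases. A 6mer in exon 8 was shared by CRMP1, DPYSL2 and DPYSL4. DPYSL3 also had a 7mer-m8 in its 5′ UTR. DPYSL5 had no match to the seed anywhere in its mRNA of 5209 nt. A 7mer or 8mer in the coding sequence was found in 26.6% of the 18156 genes, and 59.8% had neither that nor a 7mer or 8mer in the 3′ UTR. The shared matches are not independent of each other, because the genes are paralogues. Over the aligned coding bases, CRMP1, DPYSL2, DPYSL3 and DPYSL4 were 68.9% to 72.9% identical in pairs, and DPYSL5 was 57.2% to 58.3% identical to the other members. The longest identical stretch between any pair was 34 nt.

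**Figure D1:**
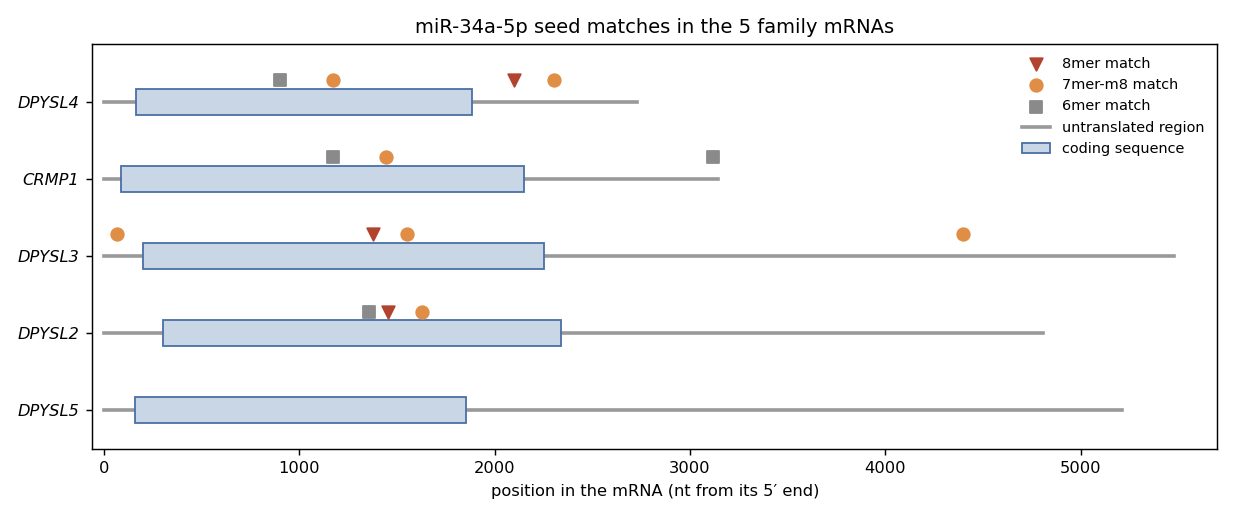
Each family mRNA drawn to scale from its 5′ end, with the coding sequence as a box, the untranslated regions as a line, and matches to the miR-34a-5p seed as symbols. DPYSL4 has an 8mer and a 7mer-m8 in its 3′ UTR, 207 nt apart, and DPYSL5 has no match.

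Library totals ranged from 24728662 to 36650331 counts. Counts were scaled by TMM, which corrects library totals for composition, and given as CPM, a count relative to the scaled library total. Of 12 genes taken as markers of this line, 11 averaged over 1 CPM, and the kidney factor PAX8 had no counts. By the same bar, 4 of 5 neuronal markers also averaged over 1 CPM. These 5 summed to 15.3 to 20.9 CPM in miR-34a libraries and 17.1 to 20.8 CPM in control libraries. The highest of them, GAD1, averaged 12.03 CPM with miR-34a and 13.27 CPM in the control, above CRMP1 in both groups. Of 3 fibroblast markers, 2 averaged over 1 CPM. These 3 summed to 23.5 to 25.3 CPM in miR-34a libraries and 23.004 to 29.5 CPM in control libraries. The bar of 1 CPM thus did not set the markers of the line apart from these. Markers of blood cells summed to at most 0.0540 CPM in miR-34a libraries and 0.0621 CPM in control libraries. In bulk RNA, fewer cells expressing a gene and less RNA per cell cannot be told apart.

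DPYSL4 had the largest difference of the family. It stood at 9.01, 9.68 and 8.88 CPM in miR-34a libraries, against 20.6, 22.1 and 22.5 CPM in control libraries. Every miR-34a library lay below every control library. The level was 2.37-fold lower with miR-34a, a log2 fold change of -1.24 ± 0.10 (SE, n = 3 per group) with a 95% interval of -1.45 to -1.04. The counts behind it were 227, 283 and 329 with miR-34a and 505, 725 and 725 in the control. This is the value the family was chosen for. It ranked 10 among 974 protein-coding genes that were called lower, did not overlap between the groups and averaged 3 or more on the log2 CPM scale, and the next was ZHX2 with a log2 fold change of -1.14. DPYSL4 (ENSG00000151640, chr10:132186900-132205776, plus strand) shares no exonic base with another annotated gene.

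CRMP1 had a smaller difference in the same direction. It stood at 6.67, 7.08 and 8.56 CPM in miR-34a libraries, against 9.84, 10.9 and 11.3 CPM in control libraries. The groups did not overlap, and the highest miR-34a library and the lowest control library were 8.56 and 9.84 CPM. The log2 fold change was -0.52 ± 0.13 (SE, n = 3 per group), with a 95% interval of -0.78 to -0.26. The gene (ENSG00000072832, chr4:5748084-5893058, minus strand) shares 2.73% of its exonic length with EVC on the opposite strand. EVC averaged 23.3 CPM with miR-34a and 20.6 CPM in the control, so reads from the shared part could come from either gene.

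DPYSL3 was the least expressed member, and its error was the widest. It had 46, 58 and 76 counts in miR-34a libraries and 68, 62 and 92 in control libraries. In CPM this was 1.83, 1.98 and 2.05 with miR-34a, against 2.78, 1.89 and 2.86 in the control. The groups overlapped, since control replicate 2 lay among the miR-34a values. The log2 fold change was -0.35 ± 0.22 (SE, n = 3 per group), and its 95% interval of -0.81 to 0.11 reaches from a fall larger than that of CRMP1 to a small rise. Counting error alone was 14.7% of the value in the library with the fewest reads. At this depth a change of that size could not be told from the spread between libraries. The gene (ENSG00000113657) lies at chr5:147390811-147510056 on the minus strand.

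DPYSL2 overlapped between the groups as well. It stood at 30.6, 29.2 and 24.95 CPM in miR-34a libraries, against 29.6, 34.5 and 29.2 CPM in control libraries. The lowest value came from miR-34a replicate 3 and the highest from control replicate 2. Its log2 fold change was -0.14 ± 0.09 (SE, n = 3 per group), with a 95% interval of -0.33 to 0.04. DPYSL2 (ENSG00000092964, chr8:26514022-26658178, plus strand) shares 0.972% of its exonic length with PNMA2 on the opposite strand.

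DPYSL5 was the most expressed member and had almost the same mean in both groups. It stood at 109, 105 and 118 CPM in miR-34a libraries, against 115, 111 and 110 CPM in control libraries. The miR-34a libraries held both the lowest and the highest of the 6 values. The log2 fold change was -0.01 ± 0.07 (SE, n = 3 per group), and the 95% interval of -0.16 to 0.13 bounds a change in either direction. With 2752 to 4370 counts in each library, counting error was at most 1.91% of its value. DPYSL5 (ENSG00000157851) lies at chr2:26847747-26950351 on the plus strand.

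**Figure D2:**
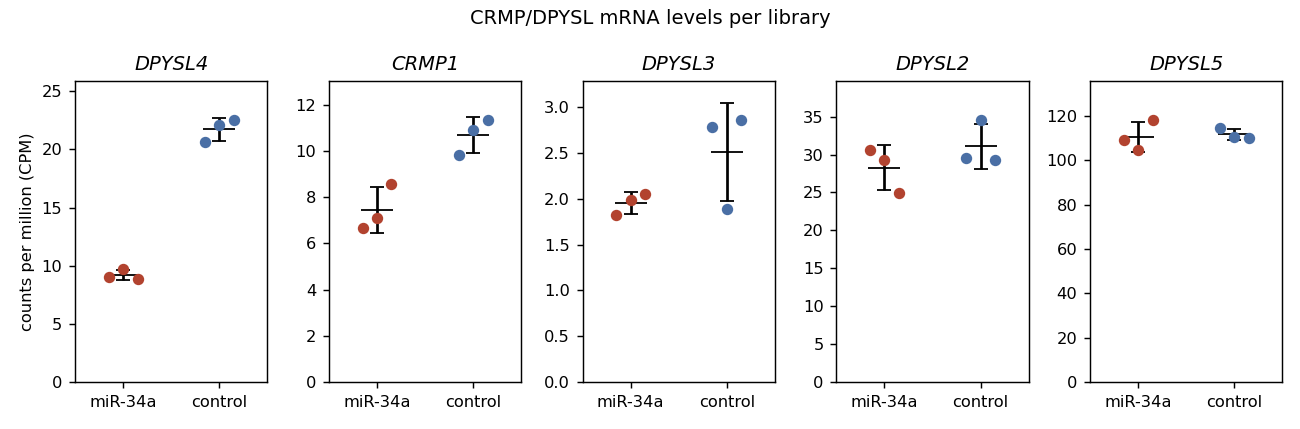
Level of each family member in CPM (scaled counts, axes from 0), with 1 point per library, a bar for the mean and whiskers for the SD (n = 3), miR-34a left of control. The groups are apart for DPYSL4 and CRMP1 and overlap for DPYSL3, DPYSL2 and DPYSL5.

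In the edgeR fit over all genes, 2 of the 5 members, DPYSL4 and CRMP1, were called lower at an adjusted p under 0.05, and 0 were called higher. Over all 17427 genes tested, 6.70% were called lower and 5.38% higher. The same 2 members had miR-34a libraries all below the control libraries, which was so for 14.2% of all genes. Nothing is read from these counts, since the family was chosen with this contrast in view. With any 1 library left out, the log2 fold change of DPYSL4 lay between -1.28 and -1.22 and that of CRMP1 between -0.64 and -0.45.

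**Figure D3:**
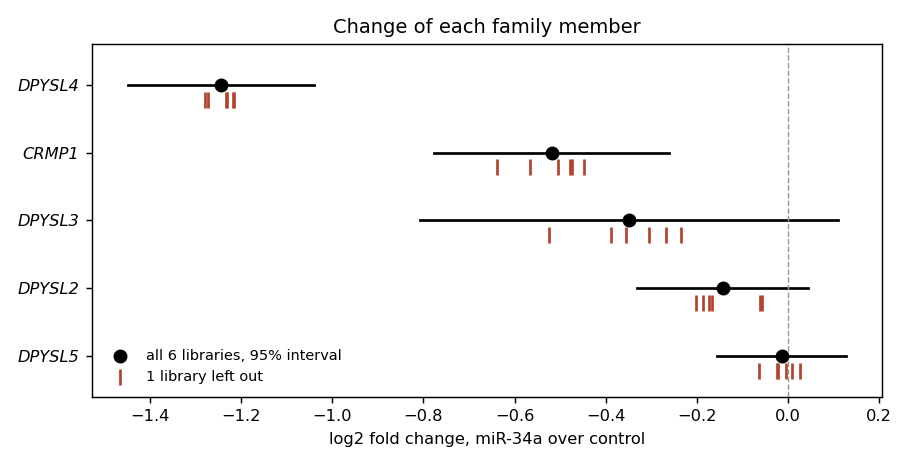
Log2 fold change of each member, miR-34a over control, with its 95% interval from all 6 libraries (black) and the values with 1 library left out (red ticks). DPYSL4 lies at -1.24 and DPYSL5 at -0.01, and the ticks of DPYSL5 fall on both sides of 0.

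Levels of the members were compared per kb of exon (RPKM, CPM divided by the length of all annotated exons of the gene in kb). In miR-34a libraries the order was DPYSL5 at 15.6 ± 0.966, DPYSL2 at 3.87 ± 0.406, DPYSL4 at 2.89 ± 0.135, CRMP1 at 1.28 ± 0.171 and DPYSL3 at 0.273 ± 0.0162 RPKM (SD, n = 3). In control libraries it was DPYSL5 at 15.8 ± 0.350, DPYSL4 at 6.84 ± 0.310, DPYSL2 at 4.26 ± 0.405, CRMP1 at 1.84 ± 0.131 and DPYSL3 at 0.350 ± 0.0751 RPKM. DPYSL4 and DPYSL2 thus changed places, and in each group no library of a member overlapped the member next to it in the order. The lowest DPYSL2 library with miR-34a was at 3.416 RPKM and the highest DPYSL4 library at 3.05 RPKM. Dividing by the length of the longest-coding transcript kept both orders, with CRMP1 the most raised, to 2.36 RPKM with miR-34a and 3.40 RPKM in the control.

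The members summed to 23.9, 23.3 and 24.6 RPKM in miR-34a libraries, against 28.8, 29.4 and 28.98 RPKM in control libraries. DPYSL4 made up 11.9%, 13.1% and 11.4% of this sum with miR-34a, and 22.5%, 23.6% and 24.5% in the control. The share of DPYSL5 was 64.7%, 63.3% and 67.7% with miR-34a, and 56.2%, 53.1% and 53.6% in the control. In every library most family mRNA was therefore from DPYSL5.

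**Figure D4:**
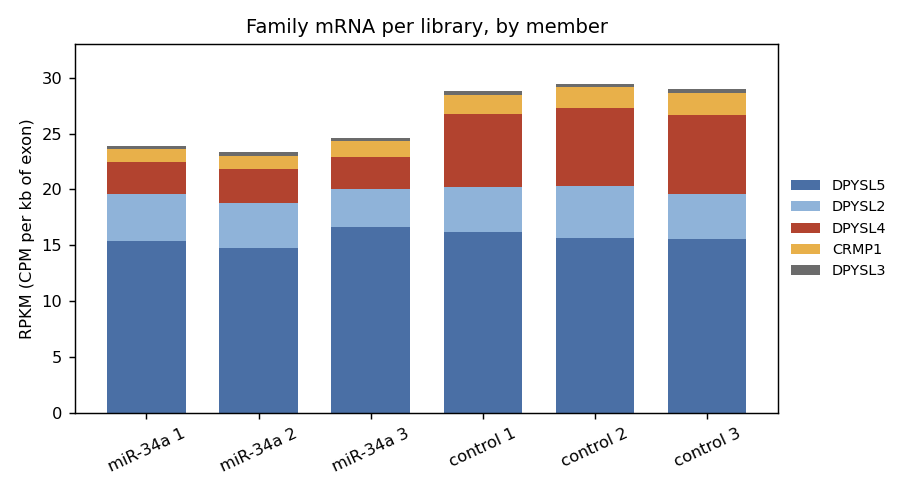
Family mRNA in each library in RPKM (CPM per kb of exon), stacked by member, miR-34a libraries left of control libraries. The DPYSL4 block is smaller in each miR-34a library, at 11.4% to 13.1% of the sum against 22.5% to 24.5%, and the DPYSL5 block is the largest in all 6.

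The members were set beside genes that share some of their kinds of seed match, and each group includes the member itself. The groups of DPYSL4 and DPYSL3 were set by 3′ UTR matches alone, though both members also hold coding matches. Genes of the DPYSL4 group could hold further 3′ UTR matches. Of 166 tested genes with both an 8mer and a 7mer-m8 in the 3′ UTR, as in DPYSL4, 32.5% were called lower and 4.22% higher. Their median log2 fold change was -0.18, and DPYSL4 had the value ranked 3 from the lowest. The family was chosen for the fall of DPYSL4, so its low rank was built in by that choice and supports nothing. Of 1018 genes with a lone 7mer-m8 there, as in DPYSL3, 15.1% were called lower and 4.62% higher, with a median of -0.08. Of 397 genes with a 6mer as the strongest 3′ UTR match and a 7mer or 8mer in the coding sequence, as in CRMP1, 10.8% were called lower and 5.79% higher, with a median of -0.04, and 3.78% of them had a lower value than CRMP1. Of 2404 genes with matches of that kind in the coding sequence alone, as in DPYSL2, 6.99% were called lower and 5.78% higher (median -0.01). Of 6534 genes with no 3′ UTR match and no coding 7mer or 8mer, as in DPYSL5, 4.13% were called lower and 8.004% higher (median 0.02). Over all 12940 classed genes 8.43% were called lower and 6.74% higher. These groups were not matched on UTR length or expression, and the values describe these libraries. The places of CRMP1 and the other members are descriptions too, since the family was chosen with this contrast in view.

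**Figure D5:**
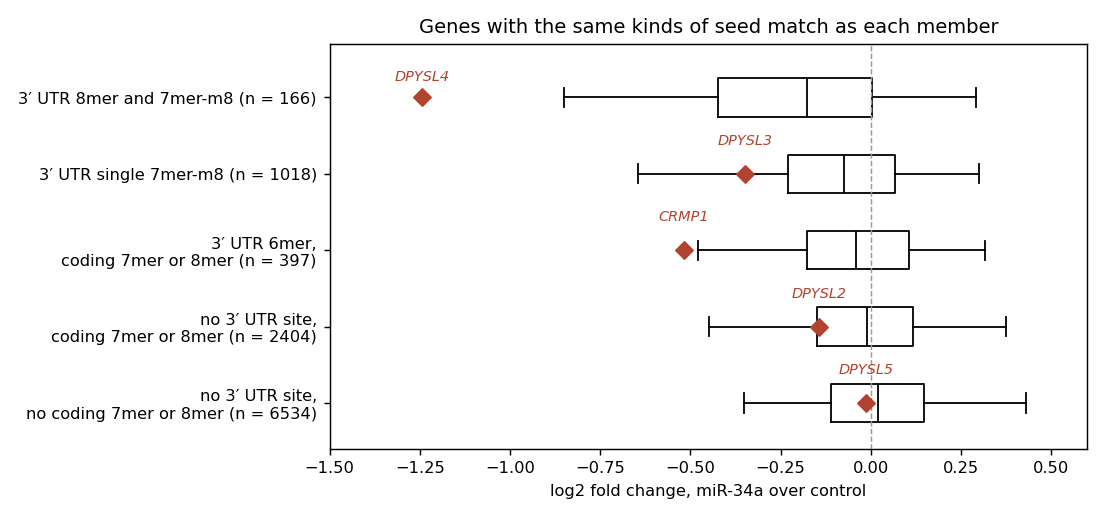
Log2 fold change, miR-34a over control, of tested genes grouped by kinds of seed match that a family member has. The groups of DPYSL4 and DPYSL3 are set by 3′ UTR matches alone. Boxes are quartiles with the median, and whiskers the 5th to 95th percentiles, with n genes in each group. The member (diamond) lies below the whisker for DPYSL4 (-1.24) and CRMP1 (-0.52) and on the lower whisker for DPYSL3 (-0.35). It lies within the box for DPYSL2 (-0.14) and DPYSL5 (-0.01). DPYSL4 was chosen for its fall, and the family with this contrast in view, so the places of the members support nothing.

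The list of semaphorins with their plexin and neuropilin receptors also held L1CAM, NRCAM, RND1, RAC1, RHOA and the FARP and MICAL genes. Genes of this mixed list mostly did not pass the test. Of 28 tested genes of that list, 1 fell and 1 rose, with a median log2 fold change of -0.03. Over all genes tested the median was -0.0041, with 6.70% called lower and 5.38% higher, and the counts of the other lists stand beside the same values. SEMA3F, a secreted semaphorin, averaged 13.6 ± 1.58 CPM with miR-34a and 18.8 ± 2.56 CPM in the control (SD, n = 3; log2 fold change -0.46 ± 0.11 SE, adjusted p = 0.0059 by edgeR). NRP1, the neuropilin that binds semaphorin 3A, averaged 32.6 ± 3.421 CPM with miR-34a and 25.7 ± 1.94 CPM in the control (0.34 ± 0.09, edgeR adjusted p = 0.011). SEMA3F lost its call without control replicate 2 (edgeR adjusted p = 0.081). NRP1 lost it without control replicate 2 or miR-34a replicate 2 or 3 (edgeR adjusted p = 0.054 to 0.086).

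Among 25 tested kinases and phosphatases that act on CRMPs, 1 fell and 0 rose, with a median log2 fold change of -0.01. PPP1CA, a catalytic subunit of protein phosphatase 1, averaged 116 ± 6.73 CPM with miR-34a and 147 ± 5.52 CPM in the control (SD, n = 3; -0.34 ± 0.07, edgeR adjusted p = 0.0012). It shares exonic sequence with 3 genes on the opposite strand, up to 11.7% of its length with CARNS1 (0.558 CPM with miR-34a, 0.439 CPM in the control) and 8.41% with RAD9A (24.7 CPM with miR-34a, 27.5 CPM in the control), so its value is uncertain.

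Of 26 tested binding partners of CRMPs, 3 fell and 1 rose, with a median log2 fold change of -0.12. TUBB, a beta-tubulin, averaged 1159 ± 66.7 CPM with miR-34a and 1629 ± 60.2 CPM in the control (SD, n = 3; -0.49 ± 0.07, edgeR adjusted p = 1.9e-05). Tubulin genes have near-identical copies and pseudogenes that can share reads, so this value is uncertain. The phospholipase PLD2 and WASF1, a subunit of the WAVE actin regulator, fell by 0.48 and 0.37 on the log2 scale (edgeR adjusted p = 0.00019 and 0.00033). KIF5B, a kinesin heavy chain, rose, with a log2 fold change of 0.32 ± 0.07 (edgeR adjusted p = 0.0032). Without control replicate 1, 7 of the list were called, against 4 with all libraries.

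Of 29 tested genes of the neuronal cytoskeleton and growth cone, 10 fell and 1 rose, with a median log2 fold change of -0.14. STMN3, a stathmin that destabilises microtubules, averaged 38.4 ± 3.08 CPM with miR-34a and 61.4 ± 4.38 CPM in the control (SD, n = 3; -0.68 ± 0.08, edgeR adjusted p = 9.3e-07). INA, the neurofilament protein alpha-internexin, averaged 42.1 ± 0.425 CPM with miR-34a and 58.5 ± 3.09 CPM in the control, and MAPT, the microtubule-associated protein tau, averaged 14.3 ± 1.03 CPM with miR-34a and 21.0 ± 2.41 CPM in the control. The log2 fold changes of INA and MAPT were -0.48 ± 0.07 and -0.55 ± 0.10, with edgeR adjusted p = 4.7e-05 and 0.00044. INA and MAPT hold an 8mer in the 3′ UTR. STMN3 holds no match there and has 1 coding 7mer or 8mer. Of the other tested 8mer genes of this list, MAPRE2 fell (-0.24) and STMN1 was not called (-0.05). Among fallen genes named from the other lists, WASF1 holds a 7mer-m8 and TUBB a 7mer-A1 in the 3′ UTR. SEMA3F, PPP1CA and PLD2 hold no match there, and neither do NEFL, NEFM and UPP1, described below. The rise was in MAPRE3, a microtubule plus-end protein whose gene lies 20.3 kb from DPYSL5 (0.36 ± 0.10, edgeR adjusted p = 0.018), and it was lost without control replicate 1 or miR-34a replicate 3 (edgeR adjusted p = 0.070 and 0.067). Without control replicate 3 or without miR-34a replicate 3, 7 of the list were called. INA is also among the markers of the line, as are the neurofilaments NEFL and NEFM, which fell by 0.32 and 0.22 on the log2 scale (edgeR adjusted p = 0.0041 and 0.037). The 12 markers summed to 669 to 702 CPM in miR-34a libraries and 742 to 806 CPM in control libraries, and their part in the counts above was not tested.

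Dihydropyrimidinase itself, the enzyme that CRMPs resemble, was hardly detected. Its gene, DPYS, was at 0.00, 0.00 and 0.162 CPM in miR-34a libraries and 0.163, 0.0609 and 0.00 CPM in control libraries, too few reads to test. DPYD and UPB1, the enzymes before and after it in pyrimidine degradation, were not tested either. Of 8 tested genes of pyrimidine metabolism and related enzymes, 1 fell and 0 rose, with a median log2 fold change of 0.01. The fall was in UPP1, a uridine phosphorylase (-0.36 ± 0.12, edgeR adjusted p = 0.045), and it was lost in 4 of the 6 fits that left out a library (edgeR adjusted p = 0.081 to 0.18).

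Several family genes lie beside members of the same other gene families. A JAKMIP gene is the neighbour or near neighbour of DPYSL4 (JAKMIP3, 2.09 kb away), DPYSL3 (JAKMIP2, 75.4 kb) and CRMP1 (JAKMIP1, 133 kb). JAKMIP genes encode microtubule-binding proteins, and only JAKMIP3 had enough reads to be tested, at 0.632 ± 0.320 CPM with miR-34a and 0.756 ± 0.178 CPM in the control (SD, n = 3; -0.24 ± 0.40, edgeR adjusted p = 0.77). On the other side of DPYSL4, STK32C, a kinase gene 1.72 kb away, averaged 16.2 ± 1.19 CPM with miR-34a and 19.0 ± 2.71 CPM in the control (-0.23 ± 0.11, edgeR adjusted p = 0.18). STK32C passed the threshold without control replicate 1 (-0.31, edgeR adjusted p = 0.041).

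The genes most like DPYSL4 across the 6 libraries, by Pearson correlation of log2 CPM over the 9943 other protein-coding genes that averaged at least 3 on the log2 CPM scale, were ZDHHC16 (r = 0.998), MLLT1 (0.998) and MOAP1 (0.997). The libraries fall into the treatment groups, so 767 genes had r above 0.9 and the measure mostly ranks genes that differ between the groups with little spread within them. ZDHHC16, a palmitoyltransferase, averaged 45.1 ± 1.70 CPM with miR-34a and 69.2 ± 1.31 CPM in the control (SD, n = 3). ZDHHC16 and MOAP1 hold an 8mer in the 3′ UTR, and the strongest match in MLLT1 is a 7mer-m8. How many of the 767 genes hold a match was not counted, so nothing is read from these matches. By the same measure the gene most like CRMP1 was NFKBIB (r = 0.989) and that most like DPYSL3 was PARP3 (0.997). SMG9 was most like DPYSL2 (0.987) and CCDC88C most like DPYSL5 (0.990). NFKBIB, PARP3 and CCDC88C hold no match in the 3′ UTR, and the strongest match in SMG9 is a 7mer-m8. NFKBIB, PARP3, SMG9 and CCDC88C were not called. Each r is the highest over all genes compared, with only 6 libraries, so its size alone shows no link.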

How the data were processed

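The deposited table held raw counts, made by the authors, for each library and Ensembl gene. The submitters' processing notes name GRCh38 as the build and edgeR 3.42.4, STAR 2.7.11a, Subread 2.0.3 and featureCounts as tools. Which annotation release was counted, and how strand and multi-mapping reads were handled, is not given in the sources used here. The TruSeq RNA v2 kit named in the labels' protocols does not mark strand. Genes were filtered with filterByExpr (minimum count 10, minimum total 15), scaled by TMM and tested by quasi-likelihood in edgeR 4.0.16 (R 4.3.3). The model held the treatment group alone, with Benjamini-Hochberg adjustment over all genes. The call threshold was an adjusted p of 0.05. The replicates are called biological in the series' design text, which does not say how the cultures were separated. The p-values weigh the difference between the groups against the spread among the libraries within a group. In this fit the spread of a gene is not taken from its own libraries alone, but is drawn towards a trend over all genes. The SEs and intervals of the log2 fold changes come from the same fit, so they also rest partly on the spread of other genes.

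Gene models, transcripts and coordinates came from GENCODE release 29 on GRCh38, and symbols from that release and its update. Seed matches were searched in the transcript with the longest coding sequence. Coding sequences were aligned with MAFFT 7.526, and duplexes were computed with ViennaRNA 2.7.2. Members and gene lists were chosen with earlier results of these data known. Named genes were the 5 members, from each list up to 3 called genes with the lowest adjusted p, the genes next to DPYSL4, all JAKMIP genes and, among protein-coding genes with a log2 CPM averaging 3 or more, those most like each member. KIF5B, MAPRE3, MAPRE2, STMN1, GAD1, NEFL, NEFM, DPYS, DPYD and UPB1 were named after their values were seen. The alternatives were DESeq2 1.42.0 size factors or its Wald test, library size only, no filter, a filter of 1 CPM in 3 libraries, voom of limma 3.58.1, a replicate block and each library left out.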

Additional observations from a re-analysis of the deposited data

How the results depend on the processing

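Across the 7 other settings the log2 fold change ranged from -1.25 to -1.23 for DPYSL4, -0.53 to -0.50 for CRMP1, -0.35 to -0.31 for DPYSL3 and -0.15 to -0.13 for DPYSL2. With 1 library left out, DPYSL3 ranged from -0.52 to -0.23, DPYSL2 from -0.20 to -0.057 and DPYSL5, whose value is close to 0, from -0.064 to 0.027. These ranges describe the members and are no test of them. The fits that left out a library called 727 to 1394 genes lower and 525 to 1287 higher; the lowest counts came without miR-34a replicate 2 and without control replicate 2. The same fits called 1 to 3 genes of the semaphorin list, 1 to 2 of the kinases and phosphatases, 4 to 7 of the binding partners, 7 to 10 of the cytoskeleton list and 0 to 1 of the pyrimidine list. The kinase list had 2 called genes with library size only and with the DESeq2 Wald test, and the pyrimidine list had 0 with library size only and with no filter. CCDC88C ranged from -0.039 to 0.032 and JAKMIP3 from -0.64 to 0.044 with 1 library left out, and CCDC88C was -0.0014 with the replicate block; the cause was not tested. No sign was seen that the replicate numbers pair the libraries. Between same-numbered libraries, the correlations of the deviations from the group means were -0.03, 0.02 and -0.08. With so few libraries this cannot exclude that same-numbered cultures were handled together. With the replicate block DPYSL4 was at -1.24 and CRMP1 at -0.53. Depth limits DPYSL3 most, with 46 to 92 counts per library.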
